A study of Mus musculus with 20 samples.

Results

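The genotype difference of the dexamethasone response was measured in mouse hippocampus as an interaction: the log2 response to dexamethasone in knockin mice minus the log2 response in wild-type mice. A value above 0 means that the knockin response was more positive, and a value below 0 that it was more negative. All 20 RNA-seq libraries of the study entered, 5 in each of 4 groups, and of 57126 annotated genes the 18648 that passed a filter on low counts were tested. Wild-type mice have the unmodified glucocorticoid receptor gene Nr3c1. Homozygous GRA knockin mice have a replaced Nr3c1 exon 2 that keeps the start codon of the full-length form GRA, while the start codons of the shorter forms (GRD1, GRD2, GRD3, GRC1, GRC2, GRC3 and also GRB) are changed from ATG to ATC. All mice were C57BL/6 males without adrenal glands, operated on at about 2.5 months of age, so every group lacked the main source of endogenous glucocorticoid. At 2 weeks after surgery they received phosphate-buffered saline (PBS) or 1 mg/kg dexamethasone (Dex), a synthetic glucocorticoid, into the peritoneum, and the hippocampus was taken 6 h later. The 4 groups are called wild-type PBS, wild-type Dex, knockin PBS and knockin Dex. The knockin is a change in the whole animal, and the RNA is from whole hippocampus, so responses of different cell types are summed.

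The glucocorticoid receptor is a ligand-activated transcription factor. Bound by hormone, it moves to the nucleus, where it raises transcription at glucocorticoid response elements and lowers that of many inflammatory genes. Ribosomes begin at several start codons within exon 2 of its messenger RNA, which gives proteins that differ in the length of the N-terminal activation domain. The hippocampus is rich in this receptor, and astrocytes, endothelial cells, oligodendrocytes and microglia there are known to respond to glucocorticoids as well as neurons.

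Between 11493014 and 48267708 read pairs were counted in genes per library (median 21603943). All 24 listed markers of hippocampal subfields and interneurons passed the low-count filter. Wild-type PBS replicates 1 and 2 stood apart in liver markers, with summed levels of 242 and 141 CPM (counts scaled to library size) against at most 60.3 in the other libraries. Wild-type PBS replicate 4 and knockin Dex replicate 2 stood apart in choroid plexus markers, with sums of 1880 and 1466 CPM against at most 633. Without the liver-rich libraries the difference of 34 of 227 named genes changed sign, and without the choroid-rich libraries that of 16. Values without them are given where a difference described below turned sign, or moved by over 1.5 times, in either case with a shift over 0.1. Differences near 0 that turned sign with a smaller shift, those of Sgk1, Slc38a5 and Aqp4, are given for all libraries only.

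No gene passed the interaction test. Of 18648 genes, 0 (0.0% of those tested) had an edgeR adjusted p below 0.05, and the smallest adjusted p rounded to 1. Without adjustment, 527 genes (2.83%) had p below 0.05, 261 more positive (1.4%) and 266 more negative (1.43%) in the knockin. This share lies below the threshold of 0.05 itself, so it is no surplus over what genes without a difference would give. It was 4.22% for genes with mean log2 CPM below 0 and 0.86% at 6 or more, and the cause was not tested. Other tools run on the same counts called 0 genes too: DESeq2 had 424 genes at unadjusted p below 0.05, with a smallest adjusted p of 0.459, and limma-voom had 609, with a smallest adjusted p of 0.762. A p that misses the threshold does not show equal responses, so the description below turns on the 95% interval of each gene's difference. An interval counted as within 1.5-fold when it lay wholly between a ratio of responses of 1.5 and its inverse. For 18630 genes an interval could be computed. It lay within 1.5-fold for 13081 genes (70.1% of those tested), within 2-fold for 16180 (86.8%) and within 4-fold for 18412 (98.7%).

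Responding genes were those whose response averaged over the genotypes passed the test (edgeR adjusted p below 0.05), a choice that weights the genotypes equally. They numbered 3393 (18.2% of those tested), of which 1824 had risen and 1568 had fallen. For 1 further gene the direction could not be estimated. Among them the 95% interval lay within 1.5-fold for 2689 genes (79.3%) and within 2-fold for 3133 (92.3%). At unadjusted p below 0.05 there were 124 responding genes (3.65%), against 403 of 15255 genes without a called mean response (2.64%). Genes that had fallen held 83 of the 124, 5.29% of the fallen genes, and genes that had risen held 41, 2.25% of the risen genes. Fallen genes also had lower levels, with a median log2 CPM of 3.63 against 5.31 for risen genes. Among responding genes the share with such a p was 8.15% at mean log2 CPM below 0 and 0.68% at 6 or more. The part of level in the contrast of falls and rises was not tested. Among those 83 fallen genes, 63 had fallen further in the knockin and 20 less far. Of all fallen genes, 58.4% had the larger fall in the knockin, but 47.1% did without the liver-rich libraries. The 63 and 20 were not recounted without them.

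Larger responses had wider intervals and lower levels, and the share of each in the width was not tested: the median log2 CPM of the 4 size classes below was 5.16, 1.93, 1.04 and 0.17. Of 2566 responding genes with an absolute mean response under 0.5 on the log2 scale, 92.8% had an interval within 1.5-fold. The share was 45.3% of 574 genes between 0.5 and 1, 22.2% of 207 genes between 1 and 2, and 2.2% of 45 genes at 2 or more. In this last class 15.6% lay within 2-fold and 62.2% within 4-fold, so for 17 of the 45 the data still allow a difference of more than 4-fold. Relative to the response itself the order turned round. The largest difference that the interval allows was, in the median gene, 136% of the mean response in the smallest class and then 94.0%, 73.7% and 56.1%. The data thus bound the difference to less than 50% of the mean response for 44, 79, 60 and 17 genes of the 4 classes.

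**Figure D1:**
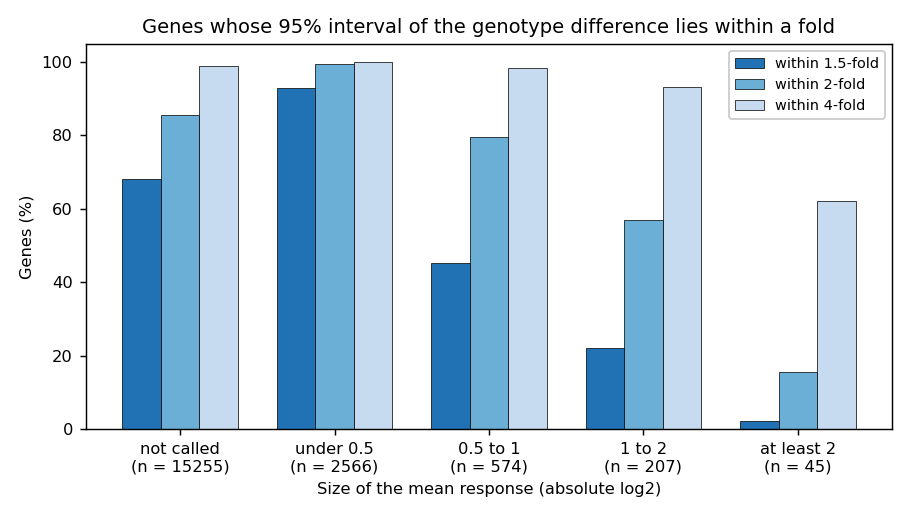
Share of genes (%) whose 95% interval of the genotype difference lies within 1.5-, 2- and 4-fold, by the absolute mean log2 response, with the number of genes in each class. Within 1.5-fold the bars go from 92.8% for responses under 0.5 to 2.2% for responses of 2 or more.

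The width of the interval also went with the expression level. Over all tested genes the median half-width of the interval was 0.89 on the log2 scale for the 2510 genes with mean log2 CPM below 0, and 0.12 for the 3503 genes at 6 or more. None of the lowest class had an interval within 1.5-fold, against 25.8% between 0 and 2, 89.9% between 2 and 4, 98.1% between 4 and 6 and 99.1% at 6 or more. Of the 255 responding genes whose interval reached past 2-fold, 235 had a mean log2 CPM below 2 and 3 had one of at least 4. These 3 were Plin4, Cdkn1a and Rasd1, chosen here after their values were seen. Rasd1, which encodes a Ras-related protein induced by dexamethasone, had a difference of 0.21 (95% interval -1.03 to 1.46) and was called in neither genotype. The Rasd1 difference without the liver-rich libraries was -0.28 (-1.63 to 1.08).

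For genes with at least a 2-fold mean response both genotypes had the same direction in every case, 252 of 252. This follows in part from the choice, since genes with opposite responses have a small mean. Of these 252 genes, 47 had an interval within 1.5-fold, 125 within 2-fold and 221 within 4-fold, and 12 (4.76%) had an unadjusted p below 0.05. For 77 the allowed difference was under 50% of the mean response, and for 56 it exceeded the mean response. At the limit of this class the Slc14a1 mean response was -1.001 and its difference -0.06 (95% interval -0.25 to 0.13), while just outside it Pla1a (named after its values were seen) had a mean response of 0.996 and a difference of -0.18 (-0.72 to 0.35), and -0.35 without the liver-rich libraries.

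Over all responding genes the slope of the knockin on the wild-type response, by total least squares through the origin, was 1.07 (jackknife SE over libraries 0.10). A slope of 1 would mean equal responses on average. Leaving out single libraries moved it between 1.01 (without wild-type Dex replicate 3) and 1.12 (without knockin Dex replicate 1). Without the 2 wild-type PBS libraries rich in liver transcripts it was 0.948, on the other side of 1. The slope was 1.05 (SE 0.11) for risen and 1.14 (SE 0.13) for fallen genes, and without those libraries 0.949 and 1.08. Of the 43 genes that had risen at least 4-fold, 32 (74.4%) had the larger response in the knockin, but 41.9% did without those libraries.

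**Figure D2:**
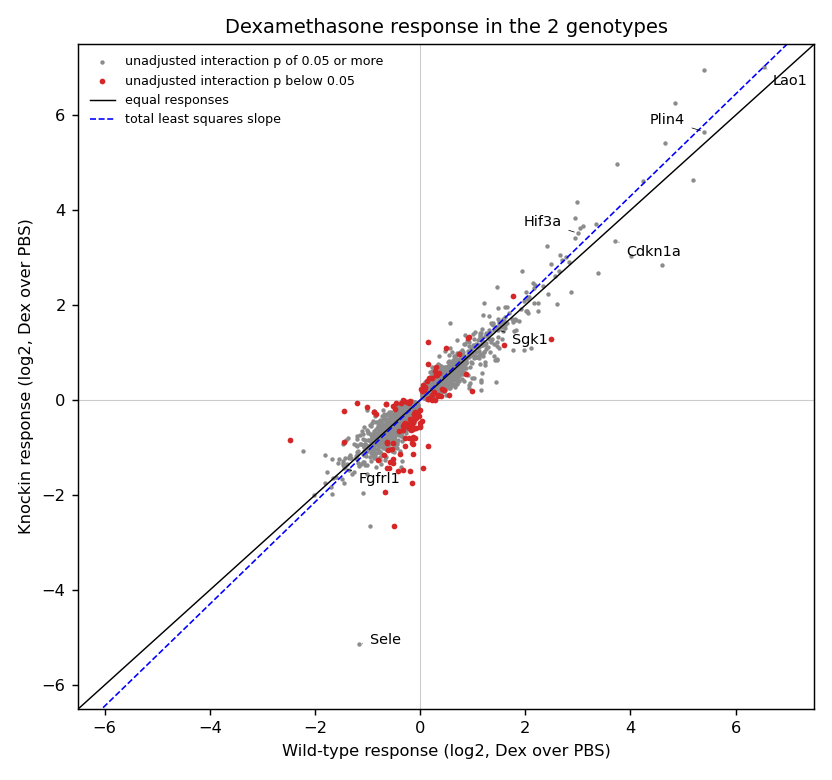
Log2 response to dexamethasone in wild-type (x axis) and knockin mice (y axis) for the responding genes with an estimate, 1 point a gene, red where the unadjusted interaction p is below 0.05. The solid line marks equal responses and the dashed line the slope of 1.07, and the points lie around both.

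The strength of the response also varied between mice of the same group. For each library the log2 levels of the 252 genes, relative to the PBS mean of the same genotype, were projected on the mean response, with a pseudocount of 0.5 CPM. All treated libraries had values below 1, and the part of the pseudocount in this was not tested. Wild-type Dex libraries had values of 0.684, 0.687, 0.492, 0.634 and 0.544, and knockin Dex libraries 0.566, 0.691, 0.668, 0.697 and 0.574. Wild-type Dex replicate 3 was the weakest of the 10 treated libraries, and the ranges of the genotypes overlapped. The group means were 0.608 ± 0.0870 (SD, n = 5) and 0.639 ± 0.0643. PBS libraries lay between -0.0498 and 0.0573, centred on 0 because each was set against the mean of its own group. The liver-rich wild-type PBS replicates 1 and 2 had the highest values of their group, 0.0296 and 0.0573. They enter the baseline of the wild-type Dex values, which were not recomputed without them. The slope for genes of at least 2-fold was 1.07, and 0.9495 without these libraries.

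Genes known to be induced through the receptor came next, 32 of which were listed and tested. Dexamethasone raised 25 of them in wild-type mice (against 5.27% of the genes tested) and 24 in knockin mice (5.28%), and 0 fell. Of the 32, 20 (62.5%) had an interval within 1.5-fold (70.1% of the genes tested), and 1, Lcn2, had an unadjusted p below 0.05 (2.83%). The list's median log2 CPM was 5.20. Within 1.5-fold lay 98.1% of all genes and 97.0% of responding genes at mean log2 CPM of 4 to 6. The list was thus less tightly bounded than genes of that level, and the cause was not tested. The median difference was 0.02, with 19 genes above 0 and 13 below, against a median of -0.00 over all genes tested. Without the liver-rich libraries the median was -0.06, with 10 above 0 and 22 below, and the counts of risen genes were again 25 and 24.

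Plin4, the gene of perilipin 4, which coats lipid droplets, had the largest mean response of the list (mm39 chromosome 17, 56407591 to 56416803, minus strand). Its levels were 1.66, 1.65, 0.762, 1.29 and 1.30 CPM in the wild-type mice given PBS and 62.4, 70.5, 36.5, 59.1 and 48.4 CPM in those given dexamethasone, replicates 1 to 5. In knockin mice they were 1.17, 0.923, 0.849, 1.28 and 1.83 CPM under PBS and 58.8, 66.9, 60.9, 50.1 and 56.9 CPM under dexamethasone. Treated and untreated libraries were far apart in both genotypes, and the treated groups overlapped, with wild-type Dex replicate 3 lowest. The log2 responses were 5.40 in wild-type and 5.65 in knockin mice, a difference of 0.26 (SE 0.42, 95% interval -0.62 to 1.14), and -0.02 (-1.13 to 1.09) without the liver-rich libraries.

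Hif3a, a hypoxia-inducible factor subunit gene, had the smallest unadjusted p among the named large rises (mm39 chromosome 7, 16765432 to 16796352, minus strand). Wild-type levels were 3.42, 2.97, 1.30, 2.44 and 2.41 CPM under PBS and 22.4, 21.3, 17.1, 20.1 and 17.3 CPM under dexamethasone. Knockin levels were 1.85, 1.80, 1.91, 2.20 and 2.53 CPM under PBS and 21.9, 23.7, 17.8, 28.5 and 23.1 CPM after treatment. Knockin Dex replicate 4 was the highest library, and the treated groups overlapped. The responses were 3.00 and 3.52, a difference of 0.52 (SE 0.27, 95% interval -0.04 to 1.07) with an unadjusted p of 0.0662 and an edgeR adjusted p of 1.0. Without the liver-rich wild-type PBS libraries the difference was 0.20 (95% interval -0.37 to 0.77).

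Sgk1, which encodes a kinase that regulates ion transport, was bounded more tightly (mm39 chromosome 10, 21758083 to 21875802, plus strand). Wild-type levels were 50.4, 52.2, 47.6, 52.2 and 52.3 CPM under PBS and 161, 165, 105, 151 and 126 CPM under dexamethasone. Knockin levels were 54.3, 48.7, 46.0, 50.7 and 56.2 CPM under PBS and 129, 170, 139, 156 and 120 CPM after treatment. No PBS library reached the treated range, wild-type Dex replicate 3 was lowest among the treated, and the treated groups overlapped. The responses were 1.47 and 1.48, a difference of 0.01 (SE 0.16, 95% interval -0.34 to 0.35).

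Other well-known targets spanned a range of precision. Mfsd2a, a lipid transporter of the blood-brain barrier, had responses of 2.05 and 2.18 and a difference of 0.13 (95% interval -0.11 to 0.36). Sdc4, a cell-surface proteoglycan gene, had 1.23 and 1.36 (difference 0.13, -0.09 to 0.36), and Rhou, a small GTPase gene, 0.87 and 0.83 (-0.04, -0.24 to 0.15). Fkbp5, which encodes a chaperone that dampens receptor signalling, had responses of 1.61 and 1.58 but a wide interval (-0.92 to 0.88). Its PBS levels ranged widely within both genotypes, 64.4, 69.2, 24.2, 36.2 and 43.4 CPM in wild-type and 45.3, 27.9, 22.7, 69.0 and 58.1 CPM in knockin mice. The liver-rich wild-type PBS replicates 1 and 2 were the highest of their group, and without them the Fkbp5 difference was -0.49 (-1.39 to 0.42). Cdkn1a, the p21 gene, whose product holds back cell division, had responses of 3.71 and 3.35 with a difference of -0.37 (-1.39 to 0.66).

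**Figure D3:**
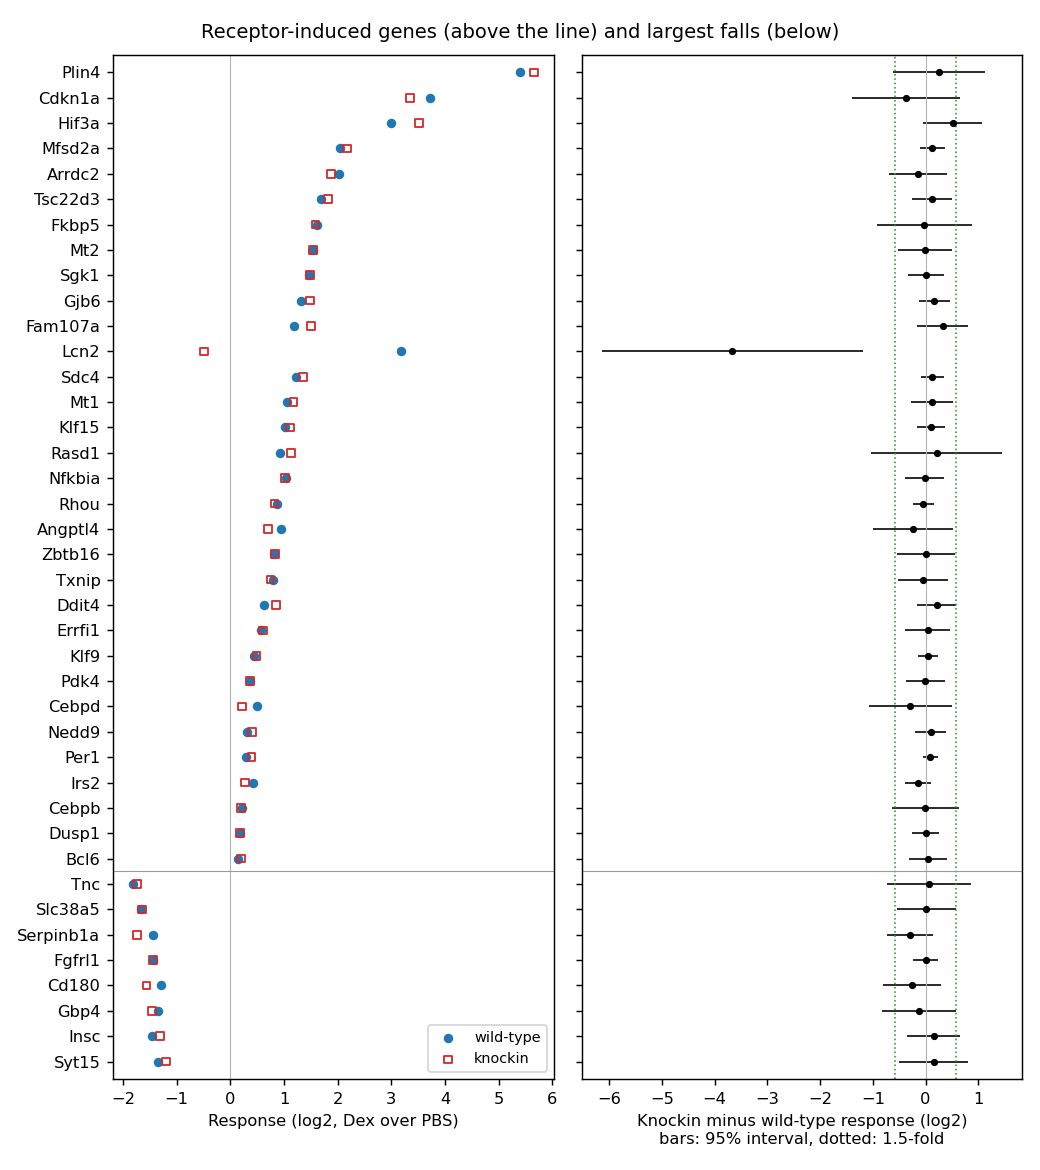
Log2 responses of both genotypes (left) and their difference with its 95% interval (right) for the 32 receptor-induced genes, ordered by mean response, and, under the line, the 8 largest falls with a gene name. Dotted lines mark 1.5-fold, and every interval but that of Lcn2 spans 0.

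The exception, Lcn2, encodes lipocalin 2, an iron-binding acute-phase protein (mm39 chromosome 2, 32274645 to 32277809, minus strand). Its levels were 2.52, 0.330, 0.254, 0.609 and 0.261 CPM in the wild-type mice given PBS and 5.36, 15.8, 2.80, 3.61 and 5.77 CPM in those given dexamethasone. Knockin mice had 1.03, 3.05, 3.13, 15.1 and 0.261 CPM under PBS and 1.99, 4.45, 2.80, 4.35 and 3.89 CPM under dexamethasone. The wild-type groups did not overlap, whereas the knockin groups did, and knockin PBS replicate 4 was the highest of the untreated libraries. That library also had the highest neutrophil marker sum, 17.0 CPM, and the part of neutrophil transcripts in the result was not tested. The other knockin PBS libraries held 0.261 to 3.13 CPM, against 1.99 to 4.45 CPM in the knockin Dex libraries. Their mean lies below the knockin Dex mean, so the negative sign of the knockin response given next rests on replicate 4. The responses were 3.18 in wild-type and -0.49 in knockin mice, a difference of -3.66 (SE 1.17, 95% interval -6.14 to -1.18) with an unadjusted p of 0.00643 that did not pass adjustment (edgeR adjusted p = 1.0). The wild-type call itself (adjusted p = 0.0353) was lost on leaving out any of 7 single libraries: wild-type PBS replicates 2, 3, 4 or 5 or wild-type Dex replicates 1, 2 or 5.

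The promoters of genes that had risen were searched for the letters of the glucocorticoid response element, since these genes moved together in both genotypes. The windows were 250 bases before to 50 after the start in RefSeq (GRCm38.p6), found for 12343 of the tested genes. The letters GNACANNNTGTNC, which read the same on both strands, occurred in 54 of the 12343 windows (0.438%). They were found in 5 of 109 genes that had risen at least 2-fold (4.59%), in 4 of 172 that had risen by 0.5 to 1 on the log2 scale (2.33%), and in 0 of 64 that had fallen at least 2-fold. The stricter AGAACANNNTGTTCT, which lies within the first set, occurred in 1 window, that of Sgk1. The 5 windows of genes whose mean response had risen at least 2-fold are shown, with the matched letters in capitals and GRCm38.p6 coordinates. Fam107a lies at chr14:8309863-8309919 (minus strand), Kcna5 at chr6:126535580-126535636 (minus), Map3k6 at chr4:133240615-133240671 (plus), Mt1 at chr8:94178973-94179029 (plus) and Sgk1 at chr10:21993680-21993736 (plus).
Fam107a: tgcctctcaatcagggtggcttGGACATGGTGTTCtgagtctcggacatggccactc
Kcna5: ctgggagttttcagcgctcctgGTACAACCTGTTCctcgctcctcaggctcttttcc
Map3k6: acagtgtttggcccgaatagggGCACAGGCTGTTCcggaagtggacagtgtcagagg
Mt1: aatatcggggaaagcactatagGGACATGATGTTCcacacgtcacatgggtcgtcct
Sgk1: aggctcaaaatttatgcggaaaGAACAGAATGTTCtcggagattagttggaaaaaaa
A match is a description of letters and not a binding site. The differences of the 5 genes were 0.33 for Fam107a (95% interval -0.16 to 0.81), -0.21 for Kcna5 (-1.06 to 0.65), 0.03 for Map3k6 (-0.77 to 0.84), 0.12 for Mt1 (-0.28 to 0.51) and 0.01 for Sgk1 (-0.34 to 0.35). Fam107a encodes an actin-associated stress protein, Kcna5 a voltage-gated potassium channel, Map3k6 a stress-activated kinase and Mt1 a metallothionein. Kcna5 was named after its window and values were seen. Without the liver-rich libraries the differences were 0.12 for Fam107a (-0.36 to 0.60), -0.46 for Kcna5 (-1.40 to 0.48), -0.23 for Map3k6 (-1.14 to 0.67) and -0.07 for Mt1 (-0.45 to 0.32).

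The largest falls were smaller than the largest rises. Fgfrl1, which encodes a decoy-like fibroblast growth factor receptor, had the narrowest interval of those named (mm39 chromosome 5, 108842134 to 108854790, plus strand). Wild-type levels were 16.2, 18.7, 16.5, 19.0 and 20.1 CPM under PBS and 6.36, 6.07, 7.72, 5.99 and 6.75 CPM under dexamethasone. Knockin levels were 18.2, 17.0, 15.9, 19.0 and 16.8 CPM under PBS and 6.71, 5.95, 6.13, 7.09 and 6.11 CPM after treatment. Treated and untreated libraries were apart in both genotypes, and the genotypes overlapped under each treatment. Both responses were -1.44, and the difference was 0.01 (SE 0.11, 95% interval -0.23 to 0.24). The amino acid transporter gene Slc38a5 fell by 1.66 in wild-type and by 1.65 in knockin mice (difference 0.02, 95% interval -0.54 to 0.58). The extracellular matrix gene Tnc fell by 1.81 and by 1.74 (0.07, -0.73 to 0.87, and 0.31 without the liver-rich libraries), and Serpinb1a, a protease inhibitor gene, by 1.44 and by 1.74 (-0.30, -0.73 to 0.14).

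Among genes with a mean response of at least 2-fold the 5 narrowest intervals were those of Mertk, Slc14a1, Rgs20, Htra1 and Sdc4, all within 1.5-fold. The Htra1 difference was 0.18 and, without the liver-rich libraries, 0.06. Mertk, a phagocytic receptor gene of astrocytes and microglia, rose by 1.03 in wild-type and 1.13 in knockin mice (difference 0.11, -0.09 to 0.31). The 5 widest belonged to genes of low level, Sele, Fbxw23, Rtp1, Lao1 and Sh2d4a. For Rtp1, leaving out the liver-rich libraries, the difference went from 0.37 to -1.24 and that of Lao1 from 0.47 to 0.07, and without the choroid-rich libraries that of Sh2d4a went from 0.32 to 0.11 and that of Rtp1 to 0.23. Sele, which encodes the endothelial adhesion molecule E-selectin, showed how little such values bound. Its levels were 0.665, 0, 0.286, 0.761 and 0.0326 CPM in the wild-type mice given PBS and 0.0771, 0.383, 0.0341, 0.0768 and 0.156 CPM in those given dexamethasone. The knockin libraries held 0.356, 2.77, 1.27, 5.45 and 0.0871 CPM under PBS and 0, 0, 0.156, 0.140 and 0.0492 CPM under dexamethasone. Knockin PBS replicates 2, 3 and 4 were high, and the groups overlapped within each genotype. The difference was -3.98 (SE 2.14, 95% interval -8.51 to 0.55), with an unadjusted p of 0.0815.

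Calls in a single genotype gave a different count from tests of the difference. The wild-type response passed for 1717 genes (9.21%) and the knockin response for 1864 (10.0%). The calls were shared for 1262 genes, all in the same direction, while 455 genes passed in wild-type mice alone and 602 in knockin mice alone. None of the 1057 genes called in 1 genotype passed the interaction test. Of the 455, 96.0% had the same sign in the knockin and 49.0% had an unadjusted p below 0.05 there. Of the 602, 95.3% had the same sign in wild-type mice and 54.0% had an unadjusted p below 0.05. Of the 16329 genes called in neither genotype, 66.2% had the same sign in both. An unadjusted interaction p below 0.05 was found for 61 of the 455 (13.4%) and 95 of the 602 (15.8%), against 2.83% of all genes tested. Being called in 1 genotype selects for differences, so these counts are given as a description.

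The genes with the smallest interaction p among those with mean log2 CPM of at least 1 did not pass adjustment. In the positive direction the smallest p was that of Gpr3, which encodes an orphan receptor coupled to cyclic AMP (mm39 chromosome 4, 132936651 to 132939847, minus strand). Its levels were 2.90, 3.82, 3.14, 3.88 and 3.55 CPM in the wild-type mice given PBS and 2.70, 2.81, 2.08, 2.23 and 2.34 CPM in those given dexamethasone. For the knockin mice they were 2.10, 3.09, 2.34, 2.36 and 2.18 CPM under PBS and 3.08, 2.39, 3.95, 3.23 and 3.25 CPM under dexamethasone. All treated wild-type libraries lay below the untreated ones, while the knockin groups overlapped through PBS replicate 2 and Dex replicates 1 and 2. The responses were -0.51 and 0.39, a difference of 0.89 (SE 0.20, 95% interval 0.48 to 1.30) with an unadjusted p of 0.000136. The wild-type response passed its own test (edgeR adjusted p = 0.0211), but not without wild-type PBS replicate 2 or wild-type Dex replicate 3. The knockin response did not (adjusted p = 0.0866), but did without knockin PBS replicate 2 or knockin Dex replicate 2.

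In the other direction the smallest p was that of Tm4sf1, which encodes a membrane protein of endothelial cells (mm39 chromosome 3, 57193032 to 57209409, minus strand). Its levels were 13.4, 11.9, 12.8, 12.0 and 11.5 CPM in the wild-type mice given PBS and 11.2, 12.3, 11.6, 14.7 and 13.5 CPM in those given dexamethasone. Among knockin mice they were 13.6, 12.5, 14.0, 16.0 and 12.6 CPM under PBS and 9.71, 10.8, 10.5, 9.96 and 9.60 CPM under dexamethasone. The wild-type groups overlapped, and the knockin groups did not. The responses were 0.03 and -0.45, a difference of -0.48 (SE 0.11, 95% interval -0.71 to -0.25) with an unadjusted p of 0.000178. The knockin fall passed its own test (edgeR adjusted p = 0.000169).

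Gli3, a transcription factor gene of the Hedgehog pathway, had fallen in both genotypes (mm39 chromosome 13, 15637836 to 15904611, plus strand). Wild-type levels were 11.7, 12.5, 14.5, 15.2 and 13.5 CPM under PBS and 7.02, 7.54, 8.78, 7.83 and 7.22 CPM under dexamethasone. Knockin levels were 14.8, 12.6, 15.6, 13.8 and 14.7 CPM under PBS and 6.46, 5.81, 6.03, 4.56 and 7.19 CPM after treatment. Treated and untreated libraries did not overlap in either genotype, and the treated groups overlapped narrowly. Gli3 fell by 0.80 in wild-type and by 1.2515 in knockin mice on the log2 scale, a difference of -0.45 (SE 0.14, 95% interval -0.73 to -0.17) with an unadjusted p of 0.00285 (-0.36 without the liver-rich libraries). The remaining genes named by smallest p, higher in the knockin, were Fam20a, Dctd, Surf1, P3h1, Top3a, Riox2, Flvcr1, Cnpy4 and Rpl35, with differences from 0.18 to 0.49. Those lower in the knockin were Ptpn6, Cd74, Jak3, Uimc1, Itgam, Fcor, H2-Aa and Zfp39, with differences from -1.48 to -0.28. Ptpn6, a phosphatase gene, Jak3, a cytokine receptor kinase gene, and Itgam, the integrin subunit CD11b, are known from blood-derived cells and microglia.

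**Figure D4:**
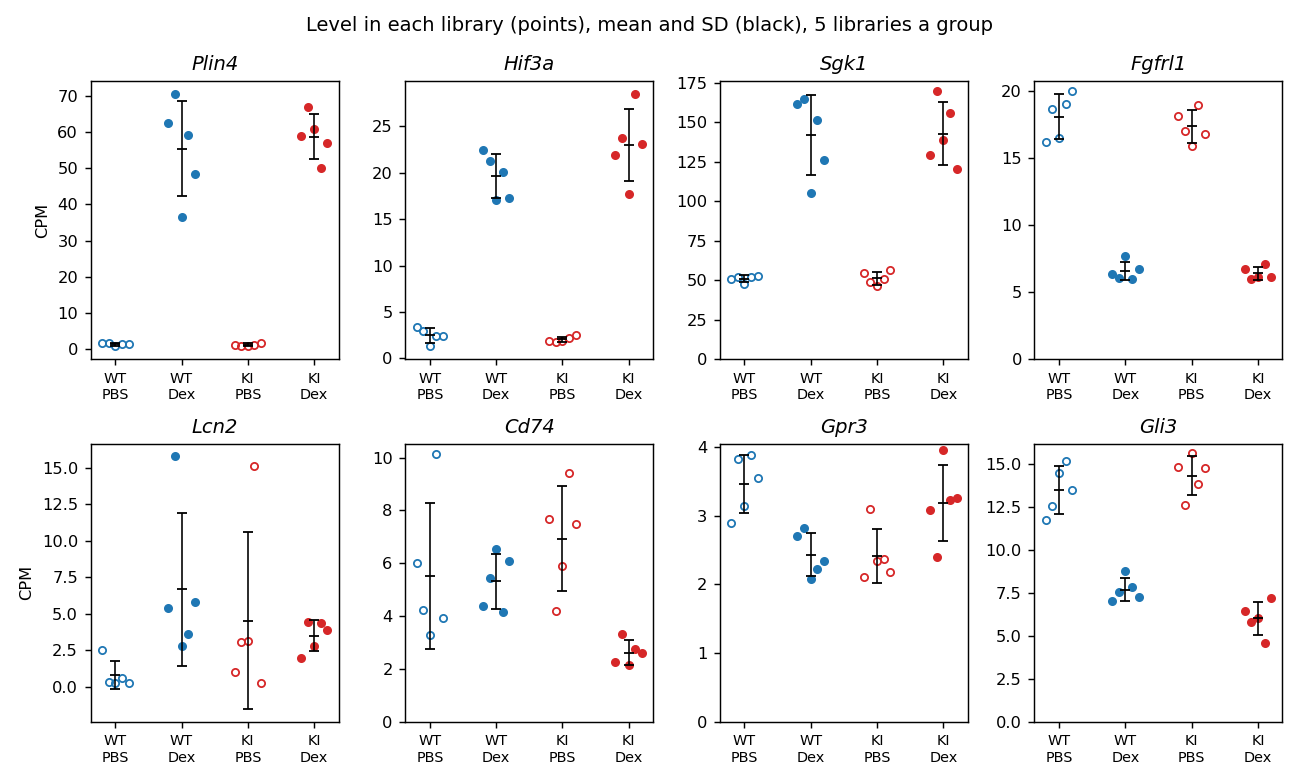
Level in each of the 20 libraries (points, CPM; WT wild-type, KI knockin), with mean and SD of 5 libraries a group, for 4 genes with large responses (upper row) and 4 with small unadjusted interaction p (lower row). In the upper row the genotypes overlap under both treatments, and in the lower row the Cd74 levels of the knockin Dex libraries sit at 2.13 to 3.33 CPM.

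Genes of antigen presentation had the highest share of small unadjusted p among the 27 gene lists. Of 10 genes for major histocompatibility complex (MHC) class II presentation, 5 had an unadjusted interaction p below 0.05 (against 2.83% of all genes), all more negative in the knockin: Cd74, H2-Aa, H2-Ab1, H2-Eb1 and H2-Oa. The wild-type response passed its test for 0 of the 10 (3.94% of the genes tested fell there), and those 5 fell in knockin mice (4.71%), although the H2-Eb1 call (edgeR adjusted p = 0.0485) was lost on leaving out any of 13 single libraries and the H2-Oa call (adjusted p = 0.0244) any of 5, with adjusted p up to 0.143 and 0.0720. The median difference over the list was -0.67. Without the choroid-rich libraries 4 fell in knockin mice, 5 had an unadjusted p below 0.05 and the median was -0.86; without the liver-rich libraries 4 fell, 3 had such a p and the median was -0.69. H2-Ob, named after its value was seen, was the 1 member above 0, with a difference of 0.78 (95% interval -0.21 to 1.77), and 0.51 without the choroid-rich libraries.

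Cd74 encodes the invariant chain that escorts MHC class II molecules (mm39 chromosome 18, 60936920 to 60945724, plus strand). Its levels were 6.03, 4.22, 3.27, 10.1 and 3.91 CPM in the wild-type mice given PBS and 4.40, 5.43, 6.52, 4.15 and 6.08 CPM in those given dexamethasone. In knockin mice they were 7.69, 4.20, 5.89, 9.41 and 7.49 CPM under PBS and 2.26, 3.33, 2.13, 2.74 and 2.61 CPM under dexamethasone. The wild-type groups overlapped, with PBS replicate 4 the highest, and every knockin Dex library lay below every knockin PBS library. The responses were 0.05 and -1.42, a difference of -1.48 (SE 0.39, 95% interval -2.29 to -0.66) with an unadjusted p of 0.00134 and an edgeR adjusted p of 1.0. Without the choroid-rich libraries, wild-type PBS replicate 4 and knockin Dex replicate 2, the difference was -1.84 (-2.48 to -1.21), and its adjusted p of 0.155 was the smallest of any gene and setting run. In bulk tissue, fewer cells of a type and less RNA per cell cannot be told apart.

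Of 16 interferon response genes, 6 fell in wild-type mice (3.94% of the genes tested) and 10 in knockin mice (4.71%), and 2 had an unadjusted interaction p below 0.05 (2.83%). The wild-type count went from 4 to 7 and the knockin count from 7 to 10 over single left-out libraries, and the wild-type call of Ifit3 (edgeR adjusted p = 0.0489) was lost without any of 15 of them. The median difference was -0.17, and 13 of the 16 were below 0. It was -0.35 without the liver-rich libraries, where 17 genes passed the low-count filter. Ifitm3, which encodes an antiviral membrane protein, had levels of 8.45, 7.92, 8.51, 8.68 and 8.60 CPM in the wild-type mice given PBS and 5.13, 7.28, 5.91, 4.45 and 6.23 CPM in those given dexamethasone. Knockin mice had 9.26, 8.17, 9.18, 12.7 and 9.14 CPM under PBS and 4.40, 4.54, 4.31, 4.42 and 6.45 CPM under dexamethasone. Treated and untreated libraries were apart in both genotypes, and knockin PBS replicate 4 was the highest. Ifitm3 fell by 0.54 and by 1.03, a difference of -0.49 (SE 0.17, 95% interval -0.85 to -0.13) with an unadjusted p of 0.00967. Ifit1, an interferon-induced RNA-binding protein gene, had responses of -0.57 and -1.30, and only the latter passed its test (edgeR adjusted p = 0.000213, against 0.126 in wild-type mice, which passed without wild-type Dex replicate 3).

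Of 16 microglia markers, 8 fell in wild-type mice (3.94% of the genes tested) and 9 in knockin mice (4.71%), and 2 rose in wild-type mice (5.27%) and 0 in knockin mice (5.28%). The wild-type count of rises was 1 without the liver-rich and 1 without the choroid-rich libraries. The median difference of the markers was -0.09, and 14 (87.5%) had an interval within 1.5-fold (70.1% of all genes tested). Their median log2 CPM was 4.53, and of all genes at 4 to 6 98.1% lay within 1.5-fold. Of the markers 1, Itgam, had an unadjusted p below 0.05 (2.83% of all genes tested). The summed level of the 16 markers was 556 to 639 CPM in wild-type PBS, 495 to 547 in wild-type Dex, 553 to 620 in knockin PBS and 478 to 514 in knockin Dex libraries, and its part in the immune differences was not tested. The purinergic receptor genes P2ry12 and P2ry13 differed by 0.04 (-0.21 to 0.30) and -0.18 (-0.45 to 0.09).

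Several lists of highly expressed brain genes lay wholly within 1.5-fold, near the 98.1% and 99.1% of all genes at mean log2 CPM of 4 to 6 and of 6 or more. All 24 genes of glutamate receptors and the postsynaptic density, all 20 of GABA signalling, all 18 clock genes and all 14 astrocyte genes had intervals within 1.5-fold. Of these genes 0 had an unadjusted p below 0.05. Over all genes the share was 2.37% at mean log2 CPM of 4 to 6 and 0.86% at 6 or more. In these lists the astrocyte water channel gene Aqp4 fell by 0.40 and by 0.42 (difference -0.02, 95% interval -0.16 to 0.12). The clock output gene Dbp fell by 0.62 and by 0.60 (0.02, -0.21 to 0.24, and 0.14 without the liver-rich libraries). Of 16 myelin genes 14 lay within 1.5-fold, among them Opalin, an oligodendrocyte membrane protein gene that fell by 1.23 and by 1.18 (0.05, -0.27 to 0.36). Of 24 metabolic genes 10 rose in wild-type mice (5.27% of the genes tested) and 9 in knockin mice (5.28%), and 2 fell in wild-type (3.94%) and 3 in knockin mice (4.71%). Of the 24, 19 (79.2%) lay within 1.5-fold (70.1% of the genes tested). Their median log2 CPM was 5.14, a level at which the share over all genes was 98.1%. The triglyceride lipase gene Pnpla2 rose by 1.76 and 1.70 (-0.06, -0.53 to 0.41). Of 16 endothelial genes 13 lay within 1.5-fold, and the glucose transporter gene Slc2a1 rose by 1.18 and 1.2517 (0.08, -0.37 to 0.52).

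Immediate-early genes, which report recent neuronal activity, had few calls: 1 of 18, Egr2, fell in wild-type mice (3.94% of the genes tested) and 0 were called in knockin mice. The Egr2 call (edgeR adjusted p = 0.0454) was lost without any of 12 single libraries. The median difference of the 18 genes was 0.08, and 11 (61.1%) had an interval within 1.5-fold (70.1% of the genes tested). Their median log2 CPM was 5.18, and of all genes at 4 to 6 98.1% lay within 1.5-fold. Arc, a synaptic activity-regulated gene, had responses of -0.15 and 0.30, neither called, with a difference of 0.45 (0.06 to 0.85) and an unadjusted p of 0.0272.

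Receptor genes, chaperones, coregulators and stress-axis genes came with narrow intervals except for a few. Nr3c1 itself (mm39 chromosome 18, 39543598 to 39623727, minus strand) fell by 0.46 in wild-type and by 0.55 in knockin mice, a difference of -0.09 (SE 0.15, 95% interval -0.41 to 0.24). Its levels were 118, 118, 171, 139 and 131 CPM under PBS and 88.6, 92.6, 107, 98.3 and 107 CPM under dexamethasone in wild-type mice. The knockin values were 148, 180, 197, 142 and 148 CPM under PBS and 116, 117, 114, 96.1 and 115 CPM under dexamethasone. The treated and untreated groups did not overlap within a genotype, and without the liver-rich libraries the Nr3c1 difference was 0.03 (-0.29 to 0.35). Counts over the whole gene do not show the changed start codons and check no label. Of the 16 receptors, chaperones, coregulators and stress-axis genes listed, 14 had an interval within 1.5-fold (70.1% of all genes tested). The list's median log2 CPM was 6.64, and of all genes at 6 or more 99.1% lay within 1.5-fold. Of the 16, 0 had an unadjusted p below 0.05 (2.83% of all genes tested). The largest difference was that of Crh, the corticotropin-releasing hormone gene, 0.52 (-0.17 to 1.21), with responses of -0.08 and 0.44 that were not called. Of 206 tested genes starting within 10 Mb of Nr3c1, which can be inherited together with it, 7 (3.40%) had an unadjusted p below 0.05. Over all genes tested this share was 2.83%. An interval within 1.5-fold was found for 153 of the 206 (74.3%, against 70.1% of all genes tested).

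The largest list medians belonged to transcripts of other tissues. All 14 choroid plexus markers had differences above 0, with a median of 1.93 and a median half-width of 2.74, and 0 had an unadjusted p below 0.05. Without the choroid-rich libraries the median was -0.20, with 5 above 0 and 9 below. All 14 tested liver markers were above 0 as well, with a median of 1.98. Of these markers 2 had an unadjusted p below 0.05 (2.83% of all genes tested). Without the liver-rich libraries the median was -1.30, with 3 above 0 and 11 below, and 0 had such a p. The choroid plexus sum reached 1880 CPM in the wild-type mice given PBS and 1466 in knockin Dex libraries, against 415 in wild-type Dex and 633 in knockin PBS libraries. The liver sum reached 242 CPM in wild-type PBS libraries, against at most 60.3 in the other groups. Ttr, the transthyretin gene that defines choroid plexus, had a difference of 3.10 (-0.67 to 6.88), and -0.46 (-3.50 to 2.58) without the choroid-rich libraries. The liver albumin gene Alb had 2.35 (-0.74 to 5.45), and -1.23 (-3.84 to 1.378) without the liver-rich libraries.

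**Figure D5:**
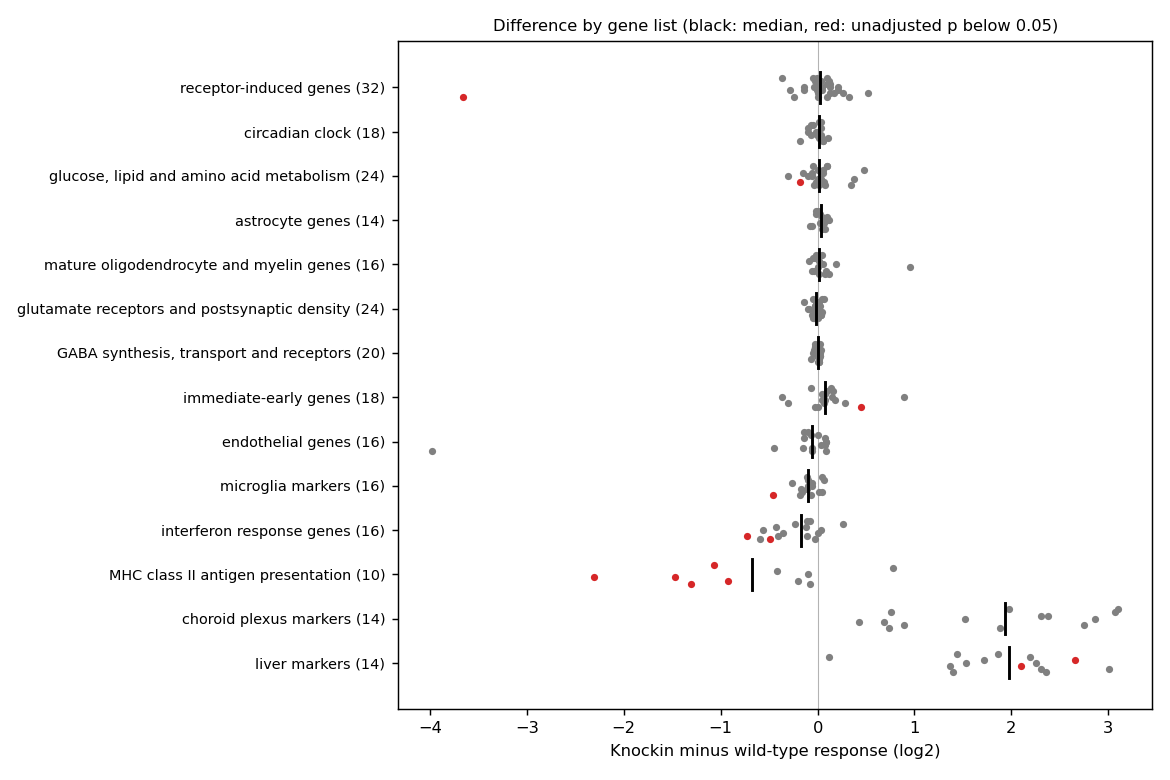
Difference of the log2 responses, knockin minus wild-type, for the tested members of 14 gene lists (points, number in brackets), with the list median in black and unadjusted p below 0.05 in red. Receptor-induced, clock, astrocyte and synaptic genes centre on 0, MHC class II genes on -0.67 and choroid plexus and liver markers on 1.93 and 1.98, medians that turn sign without the libraries rich in them (-0.20 and -1.30).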

How the data were processed

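Poly(A) RNA of whole hippocampus was sequenced as 75-base read pairs. The authors deposited 1 table of read pair counts a library, made with featureCounts 2.0.6 on the GENCODE M34 basic annotation without a strand option, per the file headers; the submitters' processing notes list STAR 2.5.1, Subread 1.5.1, DESeq2 1.38.3 and mm39. Antisense and overlapping genes may therefore share reads. Counts of close copies such as H2, Gbp, Ifit and Serpinb1 genes may also be affected, by reads that fit several copies. Symbols were matched for 51884 of 57126 gene IDs; those without one held 0.264% to 0.337% of counts.

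From the deposited counts, edgeR 4.0.16 (R 4.3.3) fitted all 20 libraries by group after TMM scaling and filterByExpr (minimum count 10, minimum total 15), with a robust quasi-likelihood test of each contrast and Benjamini-Hochberg adjustment over 18648 genes. The fit had 16 residual degrees of freedom and a common biological coefficient of variation of 7.08%. Intervals are the unshrunk log2 difference ± the t quantile times its SE, per gene and unadjusted; 18 genes had none. CPM values use TMM library sizes. Library totals of 11493014 to 48267708 set the counting precision. The labels call the libraries biological replicates; where these were not separate animals, p-values measure only the spread between samples.

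The text names the genes with the smallest unadjusted interaction p (10 in each direction, mean log2 CPM of at least 1), the 12 largest rises and 8 largest falls (unnamed gene models left out here too), receptor-induced genes, up to 4 members of each other list by interaction p plus members called in both genotypes, and the 5 widest and 5 narrowest intervals among responses of at least 2-fold. The comparison, members and 27 lists were chosen with earlier results of these data known. Alternatives were DESeq2 1.42.0, limma-voom (limma 3.58.1), other scalings and filters, a replicate block, and leaving out single libraries or those rich in liver or choroid plexus transcripts. The fit was tested on simulated counts.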

Additional observations from a re-analysis of the deposited data

Results flagged for a closer look

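In 14 of 116 groups of 5 libraries checked, the highest or lowest library lay far from the other 4. The limit used gives about 1 in 20 for independent groups of normally distributed values. The groups here hold CPM values of genes from the same 20 libraries, and their chance rate was not tested. For Lcn2 the far libraries were wild-type PBS replicate 1 at 2.52 CPM, wild-type Dex replicate 2 at 15.8 CPM and knockin PBS replicate 4 at 15.1 CPM. Knockin replicates numbered 4, which the labels do not tie to each other, were high for Fam107a, at 397 CPM under PBS and 1040 CPM under dexamethasone. Ifitm3 was high in knockin PBS replicate 4, at 12.7 CPM, and in knockin Dex replicate 5, at 6.45 CPM. Single libraries stood apart for Mfsd2a (wild-type PBS replicate 3, 11.9 CPM), Tnc (wild-type Dex replicate 5, 4.73 CPM), Gpr3 (knockin PBS replicate 2, 3.09 CPM) and Nr3c1 (knockin Dex replicate 4, 96.1 CPM). The choroid plexus marker sum stood apart in wild-type PBS replicate 4 at 1880 CPM, wild-type Dex replicate 2 at 415 CPM and knockin Dex replicate 2 at 1470 CPM.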

How the results depend on the processing

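The interaction called 0 genes under every setting run, and no named gene's difference passed the threshold under any of them. Among the named genes' own responses, 288 values lost and 92 gained a call over all settings. Without the liver-rich libraries the slope of responses was 0.948, and 0.9495 for genes of at least 2-fold. Without single libraries the slope ran from 1.01 to 1.12, genes at unadjusted interaction p below 0.05 from 482 to 619, and responding genes within 1.5-fold from 2295 to 2740. With no low-count filter, 39196 genes were tested and 1345 had an unadjusted p below 0.05; the cause was not tested. The share of responding genes within 1.5-fold was 74.8% with no filter and 87.6% with at least 50 counts in 5 libraries, which drops low genes. It was 76.5% without the liver-rich and 75.7% without the choroid-rich libraries, where fewer samples were fitted.

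Replicate numbers did not pair the samples: over 30 same-numbered pairs the correlation of deviations ran from -0.108 to 0.249 (median 0.0151), and 6 of 20 libraries correlated best with their own number. With a replicate block the interaction called 0 genes, 510 had an unadjusted p below 0.05, 3367 responded in the mean and the slope was 1.08. For genes with a mean log2 CPM below 0, no interval lay within 1.5-fold; the part of sequencing depth in this was not tested.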
